A study of Drosophila melanogaster with 6 samples.

Results

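The 5 protein-coding genes described here, CG6574, CG6738, CG44250, CG15673 and l(1)G0469, are genes that an earlier reading of these data had placed higher in macrophages expressing DfosDN, leaving aside heat shock and cuticle genes. They were found by name among the 17494 genes listed for each sample, and all 5 were among the 7485 genes with enough reads to be tested. The levels in mac>DfosDN and control samples are the values that chose these genes. They are therefore given as a description, with no test.

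The 6 samples are macrophages sorted by their mCherry fluorescence from Drosophila melanogaster embryos, 3 of them from mac>DfosDN embryos and 3 from control embryos. Both genotypes were w and carried srpHemo-Gal4 and srpHemo-3xmCherry on the third chromosome. In the mac>DfosDN genotype these lay over UAS-DfosDN, and in the control genotype over a wild-type chromosome with no UAS transgene. The methods list these genotypes for the adults caged to lay the embryos. The labels give collection at 29°C and stage 11 for both genotypes, and the methods add that harvested embryos were stored in the cold until dissociation and that the collections reached into the start of the next stage. The 3 samples of each group come from separate sorts per the methods, which do not say whether the sorts drew on separate crosses, so the spread below is that between sorts. The srpHemo promoter is active in macrophages (hemocytes), so that the driver of the transgene and the sorted label share 1 promoter. The controls carry no UAS transgene, so expression of a transgene and expression of DfosDN cannot be told apart.

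Dfos, the product of kay, is the Drosophila Fos protein, a bZIP transcription factor that pairs with Jun-related antigen to form AP-1. DfosDN is a dominant negative form that keeps the bZIP part and blocks the endogenous protein. Embryonic macrophages arise in the head mesoderm, spread through the embryo and engulf dying cells. Of the genes described here, CG6574 belongs by sequence to the reduced folate and thiamine carrier family of membrane transporters, and CG6738 to the aminoacylase-like enzymes, which split N-acylated amino acids. The files give no description of CG44250 or CG15673, and l(1)G0469 is named only for a lethal mutation on the X chromosome.

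Levels are given as restored reads and as scaled TPM (transcripts per 1e+06, read number divided by exon length and scaled to the sample). Every deposited value of 1 TPM or more had lost its decimal point, 7425 to 7683 values per sample, while values under 1 TPM were intact. The digits fix the read number up to a power of 10, and the smallest power of 10 that gave a whole number of reads was the lowest read number possible. Of the 30 values of the 5 genes, 22 had lost the point, and 0 of them were placed above that smallest power. The read numbers of these 22 values are thus the lowest that the digits allow. Restored reads came to between 8323303 and 8921575 per mac>DfosDN sample and between 8821957 and 9908239 per control sample.

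The kay gene, whose reads can come from the endogenous gene and from the transgene, had 941, 945 and 866 reads in mac>DfosDN samples, against 368, 784 and 665 in control samples. Its level was 16.1 ± 1.78 TPM in mac>DfosDN macrophages and 10.2 ± 3.82 TPM in control macrophages (SD, n = 3 each), a log2 difference of 0.67 (SE 0.30) that did not pass the test (limma, adjusted p = 0.267). The 14 tested macrophage markers of 15 summed to 9879 to 14224 TPM in mac>DfosDN samples and 16657 to 22757 TPM in control samples. NimC4 supplied most of each sum, with means of 9235 TPM in mac>DfosDN and 15567 TPM in control samples. It did not pass the test (log2 -0.77, limma adjusted p = 0.0516). The log2 differences of gcm, ush, Pvr and sn were positive, and those of the other tested macrophage markers negative. Of these markers 1 was called higher, gcm (log2 0.91, limma adjusted p = 0.0175), and 0 were called lower, with 7 lower and 2 higher at an unadjusted p under 0.05 and 3 lower by limma-voom. How many of all tested genes passed the unadjusted cut was not counted, so nothing is read from the 7 and the 2. The 3 crystal cell markers summed to 2002 to 2615 TPM in mac>DfosDN samples and 5114 to 14237 TPM in control samples, PPO2 being called lower (log2 -2.12, limma adjusted p = 0.00779). The PPO2 call is uncertain, as 3 of its values were placed above the smallest power. At the smallest power for every value its log2 difference was 0.10 (limma adjusted p = 0.984). PPO2 supplied most of each sum, with means of 1994 TPM in mac>DfosDN and 9494 TPM in control samples. Neither PPO1 (log2 -1.20, limma adjusted p = 0.0871) nor lz (log2 0.06, limma adjusted p = 0.956) passed the test. The 2 midgut markers summed to 4.38 to 8.70 TPM in mac>DfosDN samples and 1.32 to 3.60 TPM in control samples, the endodermal GATA factor GATAe being called higher (log2 1.59, limma adjusted p = 0.0419), though by limma-voom it was not. In muscle, neuron and glia, epidermis and trachea, amnioserosa, salivary gland and germ line (osk not restored) the summed ranges of the groups overlapped. Of the fat body markers, Lsp2 was at 0 in all samples. Adh had 7 reads in the second mac>DfosDN sample and 0 in every other sample. The part of these cell types in the levels below was not tested, and in sorted bulk samples more cells of a type and more RNA per cell cannot be told apart.

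As restored here, all 5 genes had higher levels in every mac>DfosDN sample than in any control sample. For CG6574 and l(1)G0469 this holds under the restoration that gives each group its own mean and reverses under the one that ignores the groups (log2 difference -0.98 for CG6574 and -1.23 for l(1)G0469). Of all 7485 tested genes, 11.4% (852) were separated in this way, and since the genes were chosen on this contrast nothing is read from their number. Their ratios of mean TPM ran from 4.40 for l(1)G0469 to 21.3 for CG44250, the larger ones resting on few control reads. The fitted log2 differences, on log2(TPM + 1), ran from 2.06 to 2.40, against a median of -0.0049 over all tested genes. Ranked from the most positive difference down, the 5 genes stood at 15 to 33 of 7485. Restored with the groups ignored, CG44250, CG15673 and CG6738 stood at 2, 4 and 10 of 7560, but CG6574 at 7348 and l(1)G0469 at 7461. CG6738 and CG44250 had under 10 reads in every control sample and so passed the read filter through their mac>DfosDN samples alone. CG15673 reached 10 reads in only 1 control sample, so it too needed its mac>DfosDN samples to pass.

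**Figure D1:**
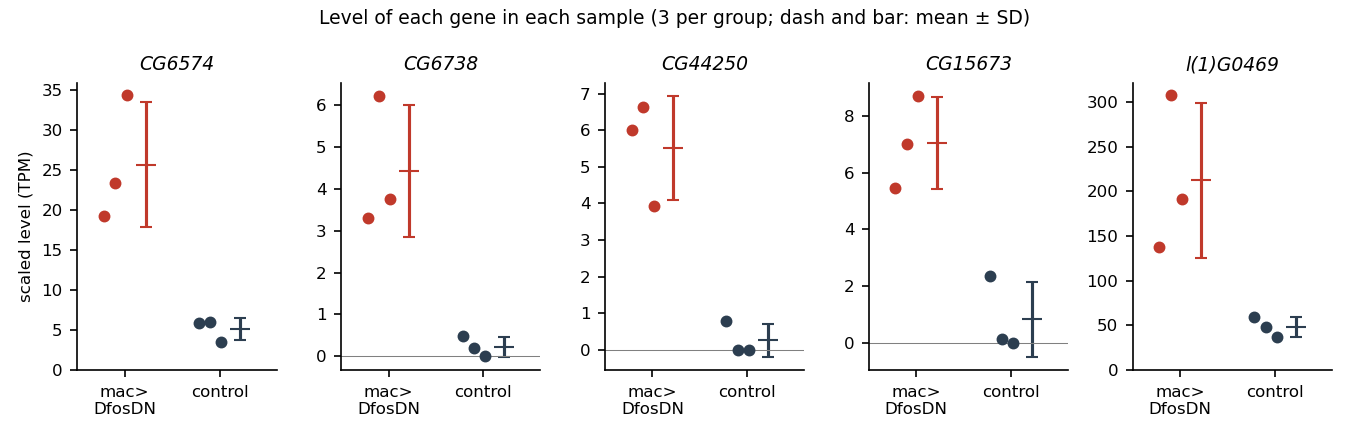
Scaled level, as restored with a mean for each group, (TPM, linear axes with a separate scale for each gene) of the 5 genes in the 3 mac>DfosDN and 3 control samples, each point 1 sample, with the mean and SD of each group as dash and bar. In each gene the 3 mac>DfosDN points lie above the 3 control points, the closest approach being a ratio of 2.31 between the lowest mac>DfosDN and the highest control sample in CG15673 and in l(1)G0469.

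CG6574 (FBgn0037846), the folate and thiamine carrier relative, lies on the minus strand of chromosome 3R at 10860531 to 10862988 in BDGP6.54, with 1 annotated transcript of 5 exons and 1962 exon bases. It had 292, 309 and 515 reads in mac>DfosDN samples and 95, 94 and 49 reads in control samples. These correspond to 19.3, 23.4 and 34.4 TPM in mac>DfosDN samples and 5.93, 6.02 and 3.55 TPM in control samples. The third mac>DfosDN sample was the highest of its group and the third control sample the lowest of its own, and the lowest mac>DfosDN level was 3.20 times the highest control level. The means were 25.7 ± 7.80 TPM in mac>DfosDN macrophages and 5.16 ± 1.40 TPM in control macrophages (SD, n = 3 each), a ratio of 4.98 and a log2 difference of 2.10 (SE 0.29). Among tested genes the mean stood at the 71.1 percentile of levels in mac>DfosDN macrophages and at the 35.6 percentile in control macrophages. The percentiles here and below rank genes on TPM, which divides reads by exon length. Whether reads scale with exon length under the 3′ end kit of the methods was not tested.

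CG6738 (FBgn0039053), one of the aminoacylase-like genes, lies on the plus strand of 3R at 23099533 to 23100983, with 1 transcript of 4 exons and 1291 exon bases. It had 33, 54 and 37 reads in mac>DfosDN samples, against 5, 2 and 0 reads in control samples. The levels were 3.31, 6.22 and 3.75 TPM in mac>DfosDN samples and 0.474, 0.195 and 0 TPM in control samples. The second mac>DfosDN sample was the highest, and the 0 in the third control sample allows up to 3 reads or 0.330 TPM, a limit that covers counting error only. Means were 4.43 ± 1.57 TPM in mac>DfosDN macrophages and 0.223 ± 0.238 TPM in control macrophages (SD, n = 3 each), a ratio of 19.9 that rests on 7 control reads in all. Without the first control sample, 2 control reads remained and the ratio was 45.5 (exact 95% counting interval 12.3 to 380). Without the second control sample the ratio was 18.7, and without the third 13.2 (exact 95% counting interval 6.24 to 33.6). The log2 difference was 2.13 (SE 0.30), which the added 1 TPM holds well below the log2 of the ratio itself, 4.31. CG6738 stood at the 32.4 percentile of levels in mac>DfosDN macrophages and at the 0.962 percentile in control macrophages.

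CG44250 (FBgn0265185) lies on the minus strand of 2R at 12950404 to 12952293, with 2 transcripts of up to 3 exons and 1100 exon bases. The reads numbered 51, 49 and 33 in mac>DfosDN samples and 7, 0 and 0 in control samples. Levels were 6.01, 6.62 and 3.93 TPM in mac>DfosDN samples and 0.779, 0 and 0 TPM in control samples. All control reads came from the first control sample, and the 3 reads that a count of 0 allows would be 0.343 TPM in the second control sample and 0.387 TPM in the third. The mean was 5.52 ± 1.41 TPM in mac>DfosDN macrophages and 0.260 ± 0.450 TPM in control macrophages (SD, n = 3 each), a ratio of 21.3 and a log2 difference of 2.40 (SE 0.33, log2 of the ratio 4.41). Without the first control sample no control reads remained, and against 3 reads in each remaining control library the mac>DfosDN level was higher by at least 15.1-fold. It stood at the 36.8 percentile in mac>DfosDN macrophages and at the 1.19 percentile in control macrophages.

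CG15673 (FBgn0034639) lies on the minus strand of 2R at 21608393 to 21613071, with 1 transcript of 3 exons and 1143 exon bases. In mac>DfosDN samples it had 48, 54 and 76 reads, and in control samples 22, 1 and 0 reads. The levels were 5.44, 7.03 and 8.71 TPM in mac>DfosDN samples, against 2.36, 0.110 and 0 TPM in control samples. The first control sample held 22 of the 23 control reads, and the third, at 0, allows up to 3 reads or 0.373 TPM. The group means were 7.06 ± 1.63 TPM in mac>DfosDN macrophages and 0.822 ± 1.33 TPM in control macrophages (SD, n = 3 each), a ratio of 8.59, and the log2 difference of 2.36 had the largest SE of the 5 genes, 0.45. Without the first control sample a single control read remained, and the ratio was 128 (exact 95% counting interval 22.8 to 5101). Without the second it was 5.99, and without the third 5.72 (exact 95% counting interval 3.70 to 9.26). These intervals cover counting error only, and not the spread between control samples of 22, 1 and 0 reads. CG15673 stood at the 42.0 percentile in mac>DfosDN macrophages and at the 7.37 percentile in control macrophages.

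l(1)G0469 (FBgn0040153) lies on the minus strand of the X chromosome at 14203961 to 14211457, with 3 transcripts of up to 3 exons and 3709 exon bases. It is the most abundant of the 5 genes per exon base, with 3953, 7678 and 5412 reads in mac>DfosDN samples, against 1811, 1407 and 977 reads in control samples. This gives 138, 308 and 191 TPM in mac>DfosDN samples and 59.8, 47.7 and 37.4 TPM in control samples. The second mac>DfosDN sample was the highest, and the lowest mac>DfosDN level was 2.31 times the highest control level. Mean levels were 212 ± 86.8 TPM in mac>DfosDN macrophages and 48.3 ± 11.2 TPM in control macrophages (SD, n = 3 each), a ratio of 4.40 and a log2 difference of 2.06 (SE 0.28). Unlike CG6738 and CG44250 it was well above most tested genes in both groups, at the 94.7 percentile in mac>DfosDN macrophages and the 81.3 percentile in control macrophages.

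The spread within groups differed between the genes. In mac>DfosDN samples the coefficient of variation ran from 23.1% for CG15673 to 40.9% for l(1)G0469. In control samples it was 27.2% for CG6574 and 23.2% for l(1)G0469, but 107% for CG6738, 173% for CG44250 and 162% for CG15673, the genes with control samples at 0. The first control sample was the highest control in 4 of the 5 genes, all but CG6574, while it was the highest control in 35.6% of tested genes with control reads. No control sample was lower than the third in any of the 5 genes (in CG44250 the second was also at 0). Of the tested genes with a single lowest control sample, the third was that sample in 31.3%, and in 50.0% of those called higher.

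How far these levels rest on the decimal points differed between the genes. For CG6738 and CG44250 no decimal point needs to be known: every control value was deposited intact, under 1 TPM, and every mac>DfosDN value had lost its point and so was at least 1 TPM. Over all genes with any reads, 0.469% (57 of 12159) had this arrangement and 0.387% (47) had its reverse, all control values at 1 TPM or more and all mac>DfosDN values under 1 TPM. Since the read numbers in mac>DfosDN samples are the lowest possible, another placement of a point could only widen the difference in these genes.

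CG15673 rested on a single control value. Of the control values, the second and the third were intact, but the first had lost its point and was restored as 22 reads, where the next possible number was 220. With 220 reads the ratio of means would be 0.894 in place of 8.59. Restored within the control group and restored with the groups ignored, this value was given 22 reads both times.

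CG6574 and l(1)G0469 had lost the point in all 6 samples. Their higher level in mac>DfosDN samples rests on the control values, since a higher power in any mac>DfosDN sample would only widen it. If all 3 control values were 1 power higher, CG6574 would have 950, 940 and 490 control reads and a ratio of means of 0.498, and l(1)G0469 would have 18110, 14070 and 9770 control reads and a ratio of 0.440. With a single control value 1 power higher, the ratio would be 1.11 to 1.63 for CG6574 and 0.933 to 1.32 for l(1)G0469. Each such step needs a true read number that is a multiple of 10, and of 2044 intact values of 15 reads or more, 9.15% (187) were. Restored within its own group, each value had a posterior probability of at least 0.9994 for CG6574 and at least 0.9990 for l(1)G0469. Such a probability holds only for the model that gave it.

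The choice of model decided the direction for these genes. When the restoration took all 6 samples as 1 group, it placed all 3 control values of both genes 1 power higher, and the log2 difference became -0.98 for CG6574 and -1.23 for l(1)G0469. Its posterior probabilities for these placements were 0.9993, 0.9993 and 0.99995 for CG6574, and 0.999999 in each control sample for l(1)G0469. That model draws the groups together by construction, and the model used here lets them differ by construction, so the files alone do not fix the direction for CG6574 and l(1)G0469. The paper describes a supplementary table of group means and statistics by gene, which was not used here. Counting each lost value at either its lowest power or 1 above, all mac>DfosDN samples lay above all control samples in 8 of 8 placements for CG6738 and CG44250 each, in 9 of 16 for CG15673, and in 15 of 64 for CG6574 and l(1)G0469 each. The placements are not equally probable, and the mean was higher in mac>DfosDN samples in 15 of 16 for CG15673, 60 of 64 for CG6574 and 59 of 64 for l(1)G0469.

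**Figure D2:**
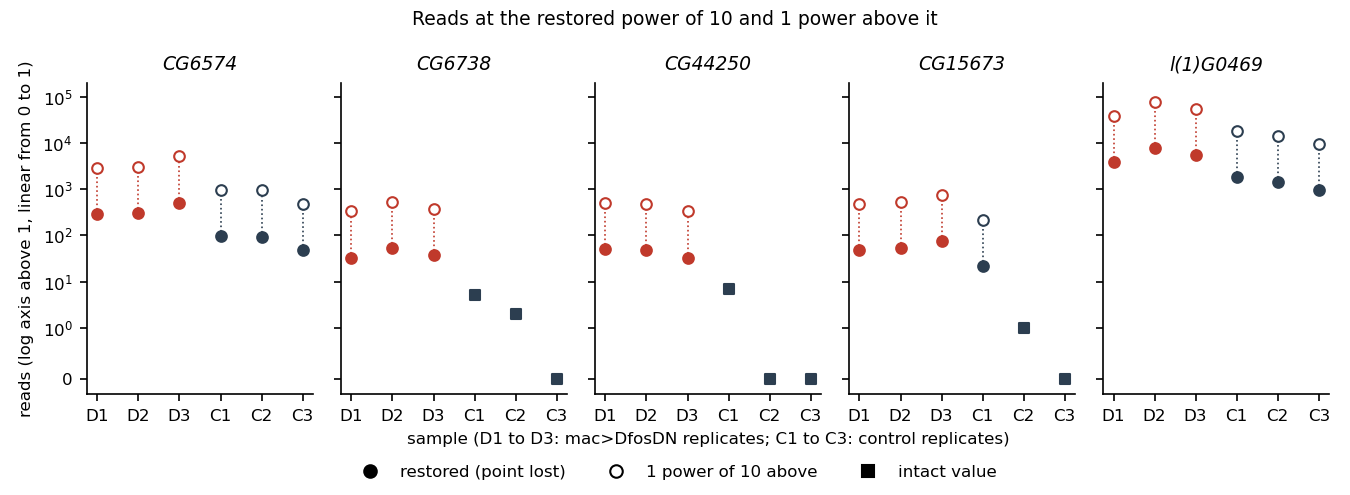
Reads of the 5 genes in each sample (log axis above 1, linear from 0 to 1), with D1 to D3 the mac>DfosDN and C1 to C3 the control samples, filled circles the restored reads of values that lost the decimal point, open circles the reads 1 power of 10 above, and squares intact values. In CG6738 and CG44250 all control values are squares at 7 reads or fewer, in CG15673 only the first control sample has an open circle (220 reads), and in CG6574 and l(1)G0469 every sample has one.

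The settings of the fit other than the restoration left all 5 log2 differences positive. Leaving out 1 sample at a time gave 1.88 to 2.28 for CG6574, 1.91 to 2.28 for CG6738, 2.28 to 2.67 for CG44250, 2.05 to 2.91 for CG15673 and 1.75 to 2.33 for l(1)G0469. The size of the difference in CG6738, CG44250 and CG15673 moved with the pseudocount. Their control levels lay below the 1 TPM added, except that of CG15673 in the first control sample (2.36 TPM). For CG44250 it was 0.99 with a pseudocount of 5 and 4.73 with 0.1.

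**Figure D3:**
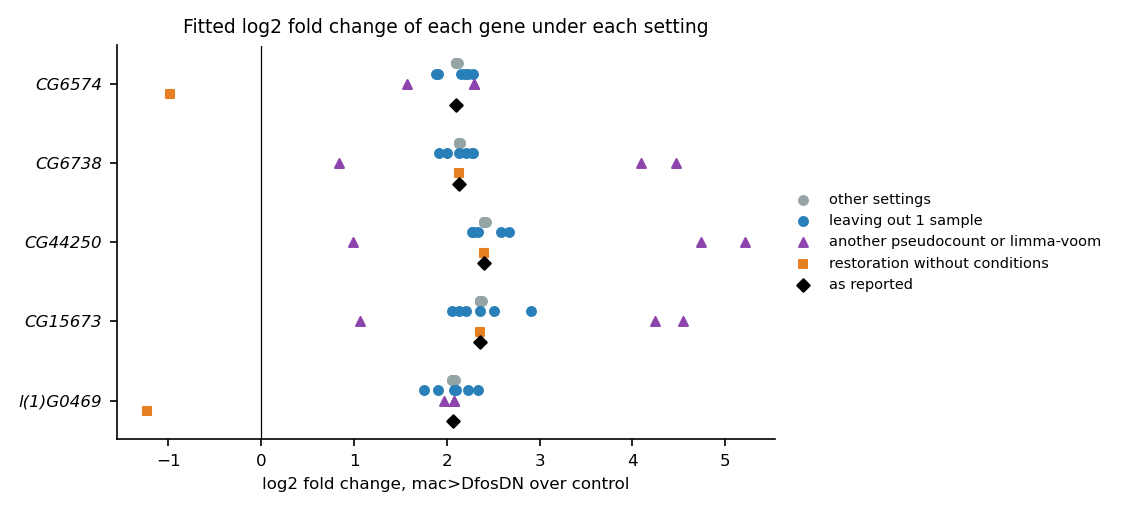
Fitted log2 difference of mac>DfosDN over control for each of the 5 genes (rows) under each setting, with the reported value as a black diamond, 1 point for each alternative, and the restoration without conditions as an orange square. The squares of CG6574 (-0.98) and l(1)G0469 (-1.23) are the points left of 0, and the triangles, for another pseudocount or limma-voom, spread most in CG6738, CG44250 and CG15673.

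Overlapping genes could share reads with these genes, as the use of strand in counting is not given in the sources used here. CG6738 lies in an intron of Cow on the opposite strand and shares 0 exon bases with it, and Cow itself had 4, 3 and 16 reads in mac>DfosDN samples and 4, 0 and 0 in control samples, below the read filter. CG44250 shares 121 exon bases (11.0%) at its 5′ end with CG44251 on the same strand, which had 12, 11 and 0 reads in mac>DfosDN samples and 0 in each control sample. CG15673 shares 85 exon bases (7.44%) at its 3′ end with the antisense RNA CR43243, which was at 0 in all samples. l(1)G0469 overlaps l(1)G0007, a gene on the opposite strand, without shared exon bases. That gene had 568, 544 and 645 reads in mac>DfosDN samples and 648, 522 and 586 in control samples, a log2 difference of 0.07 (SE 0.20, limma adjusted p = 0.898).

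Genes around the 5 were taken by position alone, as every annotated gene within 50 kb. Of 111 such genes, 102 were in the files, 20 of them at 0 in all samples, 20 below the read filter, 2 not restored (CG42394 and Sodh-2, both near CG6574) and 60 tested. Of the 60, 3 were called higher and 2 lower in mac>DfosDN macrophages, while over all 7485 tested genes 1.58% (118) were called higher and 2.12% (159) lower (limma, adjusted p under 0.05). The 60 neighbours had a median log2 difference of 0.14, with 36 positive and 24 negative values, against a median of -0.0049 over all tested genes. Restored without conditions, 0.767% of all tested genes were called higher and 0.966% lower, and of the neighbours Psc alone was called. At the smallest power for every value 0.0777% were called higher and 0.143% lower, and of the neighbours SelR alone was called (adjusted p = 0.045).

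All 3 neighbours called higher lay near CG44250, where 9 of the 10 tested neighbours had positive values and the median was 0.56. The closest, CG13321, starts 819 bases from the 5′ end of CG44250 on the opposite strand, so that the genes point away from each other. CG13321 had 216, 227 and 232 reads in mac>DfosDN samples, against 31, 49 and 19 in control samples, and 15.03 ± 1.42 TPM in mac>DfosDN macrophages against 2.06 ± 0.865 TPM in control macrophages (SD, n = 3 each). The groups did not overlap, and the log2 difference of 2.42 (SE 0.28, limma adjusted p = 0.00139) was close in size to that of CG44250. All its control values had lost the point, unlike those of CG44250. Restored without conditions the control reads became 310, 490 and 190 and the log2 difference -0.36 (limma adjusted p = 0.587).

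The other neighbours of CG44250 called higher encode gene regulators. Psc, a Polycomb group protein that takes part in gene silencing, lies 13704 bases away and had 3514, 6035 and 3419 reads in mac>DfosDN samples, against 1663, 1453 and 1141 in control samples, a log2 difference of 1.61 (SE 0.26, limma adjusted p = 0.00968). Its value was the same when restored without conditions (1.61, limma adjusted p = 0.0242), but without the third control sample the call was lost (limma adjusted p = 0.0601). Su(z)2, a relative of Psc that lies 44208 bases from CG44250 and was singled out after its values were seen, had 350, 372 and 596 reads in mac>DfosDN samples and 177, 217 and 202 in control samples, a log2 difference of 1.001 that did not pass the test (SE 0.28, limma adjusted p = 0.08). sug (sugarbabe), a zinc finger transcription factor induced by dietary sugar, lies 19760 bases to the other side and had 1260, 2214 and 1726 reads in mac>DfosDN samples and 584, 576 and 280 in control samples. Its log2 difference was 1.93 (SE 0.29, limma adjusted p = 0.00629), and -1.35 (limma adjusted p = 0.0516) when restored without conditions. The sug call is uncertain, as 2 of its values (1260 and 280) were placed above the smallest power. With 126 and 28 reads there, the log2 difference was 1.84 (limma adjusted p = 0.670). The nearest tested gene on that side, Mdr49, an ABC transporter 4057 bases away, had 86, 80 and 58 reads in mac>DfosDN samples and 74, 48 and 22 in control samples, a log2 difference of 0.51 that did not pass the test (limma adjusted p = 0.423).

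Around CG6574, 10 of the 15 tested neighbours had negative log2 differences, with a median of -0.42, and 1 of them, SelR, passed the test. SelR, a methionine sulfoxide reductase that repairs oxidized methionine, lies on the same strand and ends 367 bases before the 5′ end of CG6574. It had 64, 63 and 89 reads in mac>DfosDN samples and 434, 519 and 339 in control samples, or 3.13 ± 0.550 TPM in mac>DfosDN macrophages and 17.8 ± 2.81 TPM in control macrophages (SD, n = 3 each). SelR was thus lower in every mac>DfosDN sample, with a log2 difference of -2.18 (SE 0.25, limma adjusted p = 0.00124), and stayed under 0.05 without any 1 sample. Its mac>DfosDN reads became 640, 630 and 890 and its log2 difference 0.78 (limma adjusted p = 0.0996) when restored without conditions. On the other side, 718 bases away, CG14694 of the same carrier family had 34, 14 and 26 reads in mac>DfosDN samples and 14, 13 and 10 in control samples, a log2 difference of 0.63 (SE 0.28) that did not pass the test (limma adjusted p = 0.276). CG17036, the remaining relative on the list, had 3, 0 and 0 reads in mac>DfosDN samples and 5, 0 and 0 in control samples and was not tested.

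CG6738 sits at the end of a run of aminoacylase-like genes on the plus strand of 3R. CG6733, 342 bases before it, had 528, 789 and 495 reads in mac>DfosDN samples and 179, 204 and 573 in control samples, so that the third control sample lay within the mac>DfosDN range. Its log2 difference of 1.13 (SE 0.43) did not pass the test (limma adjusted p = 0.199). CG17109, 2293 bases before CG6738, had 229, 460 and 377 reads in mac>DfosDN samples and 847, 1130 and 1880 in control samples, and was called lower (log2 -1.73, SE 0.36, limma adjusted p = 0.0302). That call is uncertain: 3 of its values (460, 1130 and 1880) were placed above the smallest power, with 46, 113 and 188 reads the log2 difference was -0.60 (limma adjusted p = 0.808), restored without conditions it was 0.42 (limma adjusted p = 0.783), and of the 6 fits that left out 1 sample only that without the first control sample kept it (adjusted p 0.0253 to 0.112). The remaining genes of the list were below the read filter: CG6726 with up to 4 reads in mac>DfosDN samples and in control samples alike, CG17110 with 2 reads in a single mac>DfosDN sample and none in control samples, and CG6465, elsewhere on 3R, with 9, 1 and 13 reads in mac>DfosDN samples and 9, 1 and 7 in control samples. To the right of CG6738 the nearest tested gene, Rassf, named for a Ras association domain, lay 13031 bases away, with 81, 91 and 145 reads in mac>DfosDN samples, 153, 154 and 110 in control samples and a log2 difference of -0.29 (limma adjusted p = 0.648).

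No tested neighbour of CG15673 (13 genes) or of l(1)G0469 (9 genes) passed the test, the lowest limma adjusted p being 0.169 around each. At an unadjusted p under 0.05 there were 3 genes around CG15673 (2 higher and 1 lower) and 1 around l(1)G0469, higher, and limma-voom called 0 around either. The share of all tested genes at that unadjusted cut was not counted, so nothing is read from these numbers. CG10433, which lies 268 bases from the 3′ end of CG15673, had 21, 40 and 30 reads in mac>DfosDN samples and 41, 145 and 114 in control samples, a log2 difference of -1.16 (SE 0.42, limma adjusted p = 0.169). On the other side, CG18870, 774 bases away, had 165, 184 and 275 reads in mac>DfosDN samples and 172, 142 and 210 in control samples, and differed by 0.27 (limma adjusted p = 0.67). The nearest tested genes that do not overlap l(1)G0469 were CG11590, 3054 bases away, with a log2 difference of -0.03 (limma adjusted p = 0.967), and the mitochondrial ribosomal protein gene mRpL38, 14832 bases away, with 0.28 (limma adjusted p = 0.457).

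**Figure D4:**
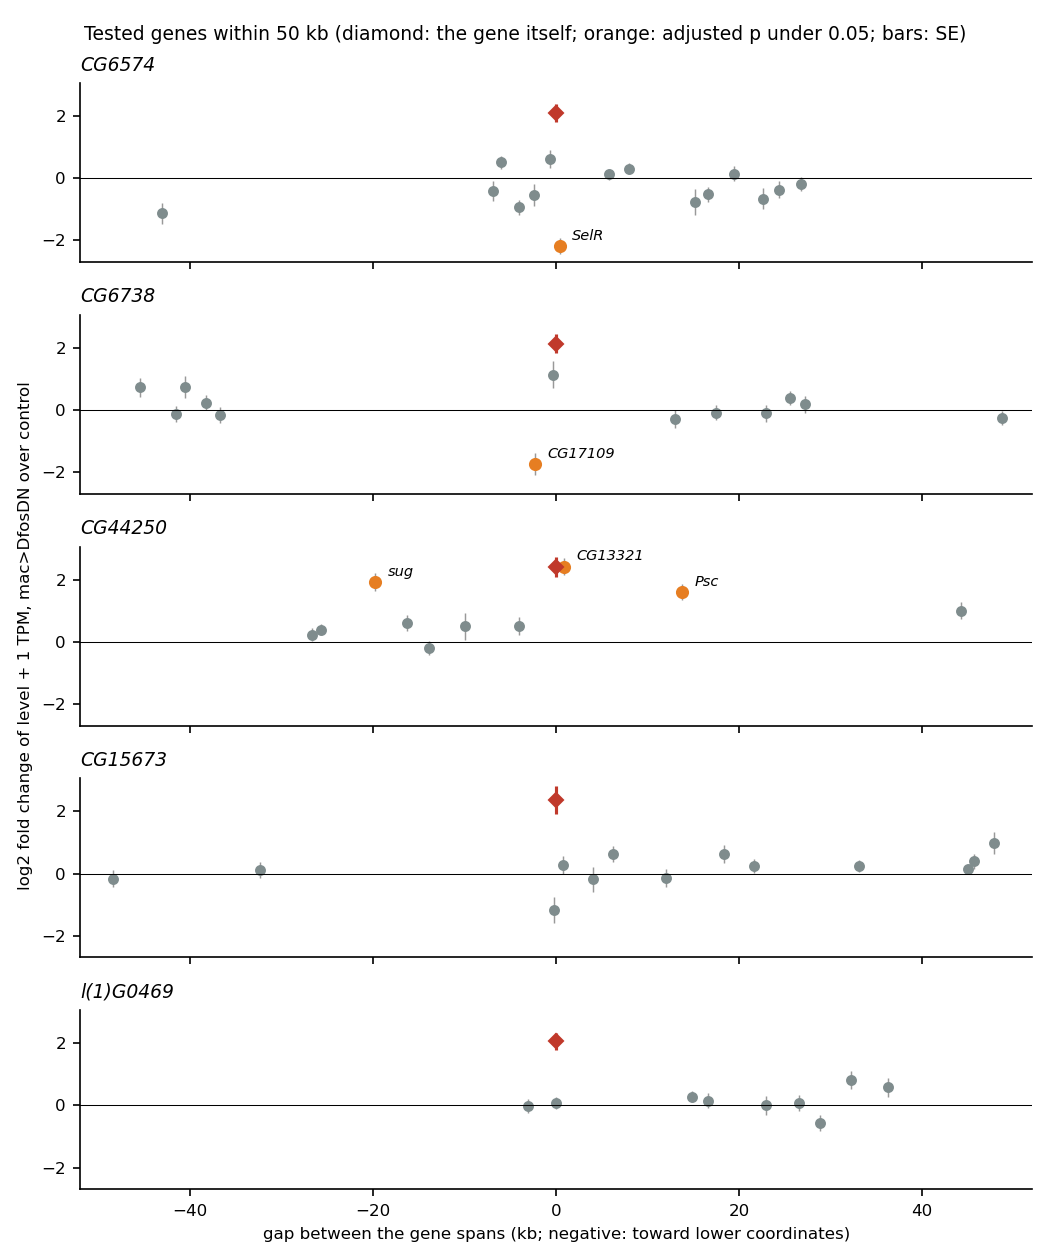
Log2 difference of mac>DfosDN over control (level + 1 TPM, bars SE) for every tested gene within 50 kb of each of the 5 genes, against the gap between the gene spans in kb, with the gene itself as a red diamond at 0 and genes with an adjusted p under 0.05 in orange. CG13321, Psc and sug stand above 1.5 around CG44250, SelR lies at -2.18 beside CG6574 and CG17109 at -1.73 beside CG6738, while around CG15673 and l(1)G0469 no neighbour is orange.

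Across the 6 samples, as restored here, the 5 genes had Pearson r of log2(TPM + 1) with one another between 0.914 (CG6574 and CG44250) and 0.993 (CG6738 and l(1)G0469). These values are a description over 6 samples, and genes chosen as higher in 1 group share the split by genotype. With the groups ignored in the restoration, r of CG6574 with CG6738, CG44250 and CG15673 was -0.59 to -0.80 and that of l(1)G0469 with them -0.63 to -0.74, so the genes listed below for CG6574 and l(1)G0469 hold for the restoration used here. Of the 7484 other tested genes, 63 to 79 had r over 0.95 with each of the 5. The closest to CG6574 were Pdk, the pyruvate dehydrogenase kinase gene, CG3788 and pnr, which encodes the GATA factor Pannier, each at 0.988. Closest to CG6738 stood Taf2, for a TFIID subunit, at 0.999, the chorion protein gene Cp18 at 0.994 and stg, which encodes the Cdc25 phosphatase String, at 0.993. CG44250 varied most like CG31272 (0.994), which had 95, 105 and 54 reads in mac>DfosDN samples and 12, 3 and 0 in control samples, then SNRPG (0.992), for a core protein of spliceosomal particles, and CG9004 (0.989). For CG15673 these were snRNA:U5:63BC (0.99), Trs31 (0.989) and GV1 (0.987), and for l(1)G0469 CG10376 (0.995), Taf2 (0.993) and CG6738 (0.993).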

How the data were processed

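RNA of sorted macrophages was sequenced in 3 mac>DfosDN and 3 control samples (50 bp reads; a 3′ end kit per the methods, standard Illumina protocols per the labels). Per the methods and the submitters' processing notes, the authors aligned reads to BDGP6 with STAR 2.5.1b, counted them per gene with HTSeq 0.5.4p3 on FlyBase annotation, and applied edgeR's TMM, voom and limma in R 3.4.4. The files the authors deposited, 1 per sample, hold neither counts nor the results of that test but other values, on the TPM scale, with the decimal point lost from 1 upward. The step from counts to these values is not given in the sources used here.

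Decimal points were restored from value = reads × a sample constant / exon length (Ensembl BDGP6.54, a later annotation than the authors' own). The constant came from intact values, of which 97.9% to 98.4% per sample gave whole reads (tolerance 0.0001 reads). Where several powers of 10 gave whole reads, a negative binomial model with a separate mean for each group decided between them, and genes with a posterior probability under 0.9 were set aside. Of 17494 genes, 5335 were at 0 throughout, 89 lacked an annotated length, 147 gave no whole reads, 290 were uncertain and 11633 were restored. Between 4.70% and 5.47% of lost values per sample were placed above their smallest power. Each group was modelled apart, so differences near 10-fold can be made or lost by the restoration. Smaller ones can be reversed, as those of CG6574 (ratio 4.98) and l(1)G0469 (ratio 4.40) were with the groups ignored.

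The 7485 genes tested had, in 3 or more samples, at least 10 reads once scaled to the median library, and 15 or more over all samples. The values were scaled by TMM factors (30% and 5% trimmed). limma with an intensity trend compared the groups on log2(TPM + 1), with Benjamini-Hochberg adjustment over all genes tested. Alternatives were other restorations, pseudocounts, filters, scalings, limma-voom, fits without 1 sample, and the replicate number as a block. Versions were pandas 2.3.3, NumPy 2.4.6 and SciPy 1.17.1 in Python 3.11.15, and limma 3.58.1 in R 4.3.3.

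The genes named are the 5 genes, their nearest tested neighbours, any neighbour within 50 kb past adjusted p 0.05, 2 lists of relatives, and the 3 genes most alike over the samples. kay, overlapping genes and the marker genes called were named in addition. Members and lists were chosen with earlier results of these data known. A search for relatives by protein sequence was planned and not run, and no sequences are shown.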

Additional observations from a re-analysis of the deposited data

How the results depend on the processing

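The count of genes called higher (118) and lower (159) depended on the restoration and the filter. It was 58 and 73 with no conditions in the restoration, 6 and 11 with the smallest power for every value, 66 and 84 with only genes that had no value above the smallest power, and 54 and 57 with every gene of at least 1 read. Leaving out 1 sample gave 50 to 105 higher and 53 to 134 lower, the fewest higher without the second mac>DfosDN sample and the fewest lower without the third control sample. The neighbours called, 5 in all, became 1 with no conditions in the restoration, 1 with the smallest power and 3 with only genes that had no value above it. With limma-voom they were 7: 4 higher around CG44250, 2 lower around CG6574 and 1 lower around CG6738. Over all tested genes limma-voom called 112 higher and 205 lower. Without 1 sample they were 4 to 6.

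With no conditions in the restoration the log2 differences of CG6574 (-0.98) and l(1)G0469 (-1.23) reversed, since the control reads were placed 1 power of 10 higher. With a pseudocount of 5 they were 1.57 for CG6574, 0.84 for CG6738, 0.99 for CG44250 and 1.07 for CG15673. With a pseudocount of 0.1 CG6738 had 4.09, CG44250 4.73 and CG15673 4.24, and with limma-voom 4.47, 5.22 and 4.54. The pseudocount fits differ from the reported one only in the amount added to the TPM. Control means were 0.223 TPM for CG6738, 0.260 TPM for CG44250 and 0.822 TPM for CG15673. The cause of the limma-voom values was not tested. Every other setting, among them another posterior limit, other scalings and each sample left out, kept the 5 values positive and moved each by less than its within-group SD on the log2 scale, pooled over both groups (0.34 for CG6738 to 0.72 for CG15673). The farthest for CG15673 was 2.91, without the first control sample.

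The replicate numbers did not pair the samples (r of same-numbered deviations -0.03, 0.03 and 0.01). With the replicate number as a block 98 genes were called higher and 130 lower, and 5 neighbours. Depth limits CG6738 and CG44250, whose controls hold 7 reads each, and CG15673, whose controls hold 23.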
